A study of Mus musculus with 12 samples.

Results

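The miR-23, miR-24 and miR-27 families were followed in the prefrontal cortex (PFC) of the mouse. Their members were chosen by name as the mature forms mmu-miR-23a-3p, mmu-miR-23b-3p, mmu-miR-24-3p, mmu-miR-27a-3p and mmu-miR-27b-3p, which are 5 of the 1374 mature miRNAs listed in the libraries. All 5 had counts in all 12 libraries and passed the filter of at least 5 counts in at least 3 libraries, as did 780 of the 1422 mature and predicted miRNAs.

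The study asked how l-methionine (MET), a dietary methyl donor, bears on cocaine-conditioned place preference (CPP), a test in which an animal learns to prefer the place paired with the drug. Small RNA of the PFC was sequenced from C57BL/6 mice, and by the study's methods each library came from the pooled RNA of a pair of adult males. Each of the 4 treatments had 3 libraries. SS mice received saline with saline, CS mice received cocaine with saline and no methionine, MS mice received methionine with saline, and MC mice received methionine and cocaine. Methionine was injected under the skin at 1 g/kg on 10 days, by the study's methods 2 times a day. The tissue of all groups, the saline controls included, was taken 2 h after the CPP test. The labels name no mutation or transgene. Libraries are named by group and by the replicate number of the label.

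MicroRNAs are short RNAs that are cut from hairpin precursors and guide Argonaute proteins to messenger RNAs, mainly through pairing of the seed, bases 2 to 8 of the miRNA. In mammals the miR-23, miR-27 and miR-24 hairpins lie together in a pair of clusters, and the hairpins of a cluster can be cut from 1 primary transcript. The families are known from blood vessels, blood cells, muscle and fat, and they are also present in brain, where the cells of vessels are mixed with neurons and glia.

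The mature sequences are shown because they say which members can stand in for each other and which can be mixed up in counting. They are the RefSeq sequences on GRCm38.p6, printed 5′ to 3′, with the seed in capitals. Of the 5 members, 4 matched a sequence by name. mmu-miR-23b-3p had no entry by that name, so its sequence is not shown.
mmu-miR-23a-3p: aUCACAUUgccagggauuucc
mmu-miR-24-3p: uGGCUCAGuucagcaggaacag
mmu-miR-27a-3p: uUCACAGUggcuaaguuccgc
mmu-miR-27b-3p: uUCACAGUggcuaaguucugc

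mmu-miR-27a-3p and mmu-miR-27b-3p had the same seed and differed at 1 of 21 bases, C19U, counted from the 5′ end with the base of miR-27a first. Reads that end before that base cannot be told apart between the 2 miRNAs, and the mismatches allowed in counting miRNAs were not given in the sources used here, so the division of reads between them is uncertain. Among 1679 mature sequences of the RefSeq table, the seed of miR-27 was in no other miRNA. The seed of miR-24-3p was in 4 others (mmu-miR-5124b, mmu-miR-6369, mmu-miR-6410 and mmu-miR-6413), which were not analysed here. No other entry held the seed of miR-23a-3p, but miR-23b-3p was missing from these sequences. Whether miR-23a-3p and miR-23b-3p share a seed could therefore not be read from them.

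A pair of further sequences bears on the results. mmu-miR-128-3p, an abundant miRNA of neurons, is printed with the run of 8 bases that it shares with miR-27 in capitals, which starts at base 1 of miR-128 and at base 2 of miR-27, so the seeds are shifted by 1 base. mmu-miR-3074-5p comes from the strand opposite the mir-24 hairpins, and the capitals mark the 20 bases that are the exact reverse complement of miR-24-3p.
mmu-miR-128-3p: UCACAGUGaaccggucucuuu
mmu-miR-3074-5p: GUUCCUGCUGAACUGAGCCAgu

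Hairpin positions are those of RefSeq on GRCm38, the mm10 assembly that the submitters' processing notes name, and overlapping genes are those of GENCODE M21. The cluster on chromosome 8 spanned 404 bases on the plus strand. It held Mir23a (chr8:84208518-84208592), Mir27a (chr8:84208672-84208758) and Mir24-2 (chr8:84208815-84208921). The first and second of these hairpins overlapped no other annotated gene, and the end of Mir24-2 overlapped an exon of the lincRNA gene Gm26532. The cluster on chromosome 13 spanned 792 bases on the plus strand and held Mir23b (chr13:63300484-63300557), Mir27b (chr13:63300712-63300784) and Mir24-1 (chr13:63301208-63301275). It lay within the protein-coding gene 2010111I01Rik on the same strand and opposite an intron of Fancc. Mir23b was in an intron, Mir27b overlapped an exon of a transcript annotated as subject to nonsense-mediated decay, and Mir24-1 overlapped exons of transcripts without a coding role. Mature miR-24-3p has the same sequence in both clusters, so its reads cannot be assigned to a chromosome, while miR-23a and miR-27a come from chromosome 8 and miR-23b and miR-27b from chromosome 13.

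Library totals were 7.77 to 11.1 in units of 1000000 counts, of which 56.1% to 67.9% were on mature and predicted miRNAs. Levels are given as CPM, the count over the total of the library times 1000000. The neuron markers miR-124-3p, miR-128-3p, miR-9-5p and miR-132-3p were all present in each library. MC replicate 16 stood apart: its median correlation with the other libraries was 0.947, against a median of 0.977 over all 12. By summed CPM it was the lowest library in 6 of 9 lists of cell markers. Among them were neurons (77927 CPM), endothelium (2972 CPM, against 6580 to 7375 CPM in SS) and vessel wall muscle (818.1 CPM, against 3154 to 3608 CPM in SS). Single markers of these lists did not all follow. In MC replicate 16 miR-124-3p was at 46349 CPM, above the other MC libraries. There miR-145a-5p of vessel wall muscle was at 39.4 CPM, against 22.4 to 26.5 CPM in SS. The neuron markers summed to 161662 to 250472 CPM in SS, 111025 to 226882 CPM in CS and 100221 to 234203 CPM in MS, with 77927 to 116407 CPM in MC. Of these, miR-124-3p was at 33188 to 46349 CPM in MC and 70274 to 176336 CPM in SS. It was also low in CS replicate 8 and MS replicate 4 (30002 and 35552 CPM). In MC replicates 17 and 20 miR-9-5p was at 53757 and 59924 CPM, against 48749 to 61617 CPM in SS. MC and SS overlapped for miR-128-3p and miR-132-3p. The part of the neuron markers in the members' levels was not tested. Profiles of 122 precursor families, with those of mir-23, mir-24 and mir-27 left out, also put the libraries in 3 sets that cross the groups. The first set held SS replicate 12 and CS replicates 8 and 9, the second held SS replicates 13 and 14, the 3 MS libraries and MC replicate 20, and the third held CS replicate 10 and MC replicates 16 and 17. The median correlation was 0.652 over 21 pairs of the same set and -0.619 over 45 pairs of different sets. The sets were cut from these same correlations, with the number of 3 fixed and each family centred over the libraries. The medians therefore describe the sets and cannot test them. The labels name no batch. The sets were uneven over the groups: the first held no MS or MC library, the second no CS library and the third no SS or MS library. Values with library set as a covariate therefore rest on few libraries.

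The 5 members were all abundant. Together they took 0.836% of all counts in MC replicate 16, 3.25% in MC replicate 17 and a median of 1.76%. miR-24-3p had the highest mean, 6950 ± 5441 CPM (SD, n = 12), and ranked between 8th and 43rd among the miRNAs of a library. miR-23a-3p followed with 3612 ± 845.4 CPM, miR-27a-3p with 3527 ± 959.4 CPM, miR-27b-3p with 3118 ± 775.8 CPM and miR-23b-3p with 2209 ± 467.0 CPM. The lowest count of a member in any library was 6397 (miR-27a-3p), so counting error was small beside the spread between libraries.

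The order of the levels was firm for some pairs and not for others. miR-23a-3p was above miR-23b-3p in 12 of 12 libraries, with a mean log2 ratio of 0.69 ± 0.20 (SD, n = 12), and above miR-27b-3p in 12 of 12. miR-24-3p was above miR-23b-3p in 12 of 12. Neighbours in the order overlapped: miR-24-3p was above miR-23a-3p in 8 of 12 libraries, miR-23a-3p above miR-27a-3p in 7 of 12, and miR-27a-3p above miR-27b-3p in 8 of 12, and the mean log2 ratio of the last pair, 0.15 ± 0.28, was within its spread. These levels count reads per mature miRNA of nearly equal length, and how well each sequence is captured in a library was not tested.

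miR-23a-3p, known to act on the messenger RNA of glutaminase in tumour cells and cut from the chromosome 8 cluster, was at 3115, 3758 and 4530 CPM in SS replicates 12, 13 and 14 and at 4543, 3751 and 2599 CPM in CS replicates 8, 9 and 10. It was at 3726, 4301 and 3547 CPM in MS replicates 3, 4 and 23, and at 1590, 3792 and 4089 CPM in MC replicates 16, 17 and 20. Apart from the low value of MC replicate 16, all groups shared 1 range. Its paralog of chromosome 13, miR-23b-3p, was at 1786, 1934 and 2248 CPM in SS, 2772, 2275 and 1884 CPM in CS, 2406, 3028 and 2026 CPM in MS, with 1278, 2387 and 2486 CPM in MC. MC replicate 16 was again the lowest, and the groups overlapped.

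miR-27a-3p, studied mostly in fat, bone and blood cells, was at 4428, 3964 and 3597 CPM in SS and 3645, 4479 and 2960 CPM in CS. It was at 4263, 3670 and 3452 CPM in MS, and at 823.5, 3538 and 3508 CPM in MC. MC replicate 16 was far below the median over libraries, 3621 CPM. miR-27b-3p, known for its part in vessel sprouting and lipid metabolism, was at 2840, 3349 and 3641 CPM in SS, 3645, 3259 and 2458 CPM in CS, 3554, 3857 and 2650 CPM in MS, with 1081, 3637 and 3446 CPM in MC. The other 2 MC libraries lay within the range of the remaining groups for both miRNAs.

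miR-24-3p, known as a brake on cell division and on vessel growth, behaved unlike the other members. It was at 2788, 8469 and 15891 CPM in SS and at 3466, 2852 and 4290 CPM in CS. It was at 4037, 9807 and 5379 CPM in MS, and at 3585, 19155 and 3684 CPM in MC. High libraries were thus found in SS, MS and MC, each beside a low library of the same group, and the 3 CS libraries were all low.

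**Figure D1:**
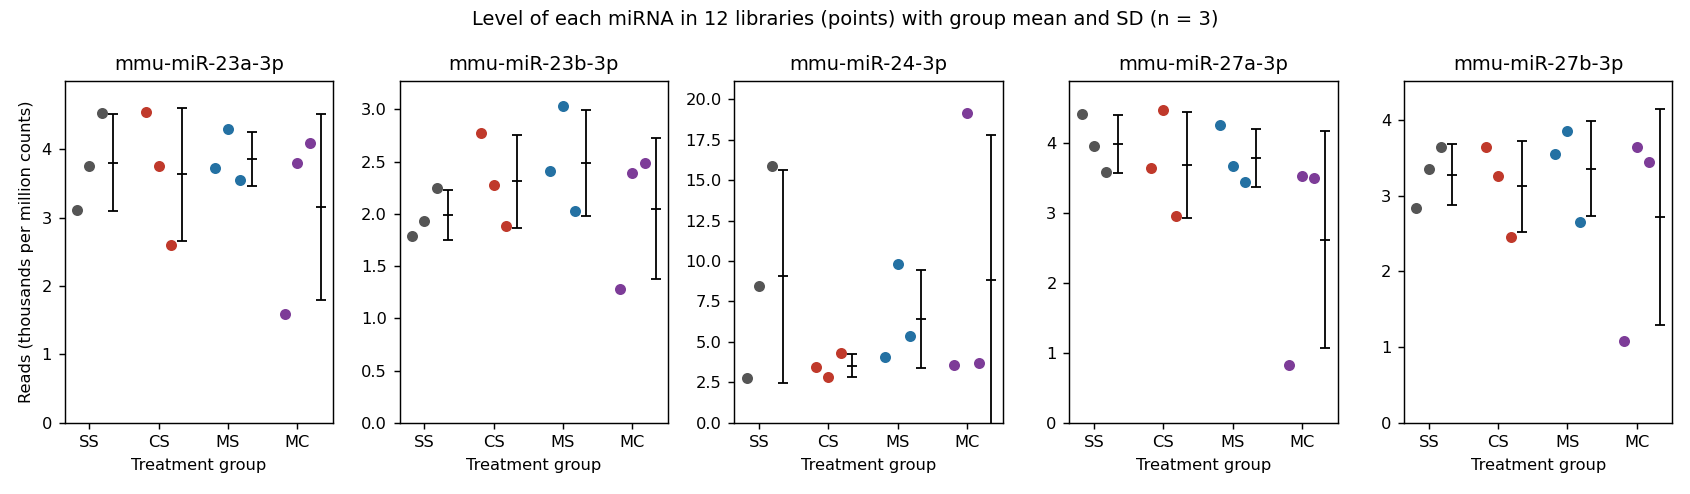
Level of each of the 5 miRNAs in CPM divided by 1000 (linear axis from 0), by treatment group. Each point is a library and the black bar is the group mean with its SD (n = 3; the lower end of the miR-24-3p bar in MC would pass below 0 and is not drawn there). miR-24-3p ranged from 2788 to 19155 CPM, with high and low libraries inside SS, MS and MC, and the lowest point of the other 4 miRNAs was MC replicate 16.

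The spread inside groups set miR-24-3p apart from most abundant miRNAs. Its pooled SD within groups was 1.01 on the log2 scale, rank 3 of the 68 miRNAs with a mean of at least 1000 CPM, whose median SD was 0.45. With MC replicate 16 left out it was still 1.01 and at rank 3, while the median of the 68 was 0.25. The SD was 0.46 for miR-23a-3p (34th), 0.35 for miR-23b-3p (47th), 0.63 for miR-27a-3p (15th) and 0.54 for miR-27b-3p (25th). Without MC replicate 16 these were 0.27, 0.23, 0.20 and 0.24, and miR-27a-3p was then 54th of 68. Thus the spread of miR-27a-3p rested on that library and that of miR-24-3p did not.

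miR-24-3p made up 17.2% of the members' counts in CS replicate 9 and 58.9% in MC replicate 17 (half-width of the 95% Wilson interval at most 0.381 percentage points in any library, for counting error only). The other 4 members summed to 9901 to 14856 CPM in 11 libraries and to 4772 CPM in MC replicate 16. The sum of all 5 was 22113 ± 7495 CPM for SS, 16293 ± 1960 CPM for CS, 19901 ± 4150 CPM for MS and 19359 ± 12218 CPM for MC (SD, n = 3 each). The groups did not separate (F = 0.305, p = 0.825 by an exact permutation test over 369600 ways to assign libraries to groups). When libraries were exchanged only within their set the exact permutation p was 0.926.

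Fold changes between groups were then taken from edgeR's quasi-likelihood fit of all 780 miRNAs, in which TMM factors bring the bulk of the miRNAs of each library to the same level. They are therefore not ratios of the CPM above, and comparisons that share a group share its libraries. The factor was 0.675 for MC replicate 16 and 0.826 to 1.26 for the other libraries. With total counts in place of TMM the median miRNA shifted by 0.31 in CS against SS, by 0.21 in MS against SS and by -0.27 in the interaction on the log2 scale, against 0.03, -0.03 and 0.06 with TMM. Signs of small changes depend on this choice, and the members are read relative to the bulk of miRNAs. In bulk tissue, fewer cells of a type and less RNA per cell cannot be told apart.

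CS against SS shows cocaine without methionine. None of the 5 members reached an adjusted p of 0.05 or below, the limit for a call, and neither did any other miRNA (percent called 0, edgeR). At an unadjusted p under 0.05 there were 22 miRNAs, and DESeq2 called 0. All 5 members were nominally lower in CS, with a median log2 fold change of -0.35 beside 0.03 over all miRNAs, although miR-23b-3p turned positive (0.22) with total counts. miR-24-3p had the largest difference of the 5, -1.57 (SE 0.66, 95% interval -3.00 to -0.13), with an unadjusted p of 0.0351 and an adjusted p of 0.994 in edgeR. Its difference was -0.91 without SS replicate 14 and -1.22 with library set as a covariate. With that covariate miR-23a-3p was at -0.098, miR-27b-3p at -0.13, miR-27a-3p at -0.28 and miR-23b-3p at 0.062. The other members were at -0.35 (SE 0.21) for miR-23a-3p, -0.06 (SE 0.18) for miR-23b-3p, -0.38 (SE 0.32) for miR-27a-3p and -0.34 (SE 0.25) for miR-27b-3p. Without CS replicate 10 miR-23a-3p was at -0.19, and without SS replicate 12 miR-27a-3p was at -0.23. The interval of miR-23b-3p, -0.45 to 0.33, was the narrowest. MC replicate 16 is in neither group but adds to the shared spread. Without it the unadjusted edgeR p was 0.0204 for miR-27b-3p, 0.0267 for miR-23a-3p and 0.0344 for miR-24-3p. It was 0.0548 for miR-27a-3p and 0.478 for miR-23b-3p, and the adjusted p of all 5 was 0.639 or above. In CPM the groups overlapped for all 5 members (13.2% of tested miRNAs did not overlap). After TMM scaling miR-27b-3p alone was lower in all 3 CS libraries than in all 3 SS libraries, as 10.4% of tested miRNAs did not overlap in either direction. Its scaled values were 3136, 4053 and 3768 CPM in SS and 2887, 3126 and 2616 CPM in CS, so the gap between the nearest libraries was small.

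MS against SS shows methionine without cocaine. edgeR called none of the members and no other miRNA (percent called 0). There were 75 miRNAs at an unadjusted p under 0.05, and DESeq2 called 13, none of them a member. miR-24-3p was at -0.76 (SE 0.64, interval -2.17 to 0.66), and at -0.08 without SS replicate 14. miR-23a-3p was at -0.22, miR-27a-3p at -0.32, miR-27b-3p at -0.22 and miR-23b-3p at 0.07, and the 95% interval of each spanned 0. miR-23a-3p was at -0.057 without SS replicate 14, miR-27a-3p at -0.14 without SS replicate 12, and miR-27b-3p at -0.027 and miR-23b-3p at 0.24 without MS replicate 23. miR-23b-3p was at -0.0083 without MS replicate 4. With total counts miR-23a-3p and miR-27b-3p turned to 0.02 and 0.03. No member separated the groups in CPM, beside 22.8% of tested miRNAs, or after TMM scaling, beside 23.5%.

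MC against CS shows methionine in mice given cocaine. Again no member and no other miRNA was called (percent called 0, edgeR, with 58 at an unadjusted p under 0.05 and 0 called by DESeq2). miR-24-3p was at 1.30 (SE 0.65, interval -0.12 to 2.73, edgeR adjusted p = 0.577). It was 0.33 without MC replicate 17. With library set as a covariate it was 0.19, where CS and MC had only the third set in common. The others were at -0.14 for miR-23a-3p, -0.08 for miR-23b-3p, -0.52 for miR-27a-3p and -0.18 for miR-27b-3p. Without MC replicate 16 these were 0.03, -0.02, -0.19 and 0.08. No member separated the groups in CPM, beside 5% of tested miRNAs, or after scaling, beside 8.85%.

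MC against MS shows cocaine in mice given methionine. edgeR called 0 miRNAs (percent called 0), with 65 at an unadjusted p under 0.05, and DESeq2 called 0. miR-27a-3p had the lowest adjusted p of the 5, 0.594 in edgeR, at -0.57 (SE 0.32, interval -1.28 to 0.14), and was at -0.26 without MC replicate 16. miR-24-3p was at 0.49 (SE 0.64), and at -0.48 without MC replicate 17. miR-23a-3p was at -0.26, miR-27b-3p at -0.30 and miR-23b-3p at -0.20. Without MC replicate 16 miR-23a-3p was at -0.11 and miR-27b-3p at -0.059. With library set as a covariate miR-23a-3p was at 0.054, miR-27b-3p at -0.052, miR-23b-3p at -0.073 and miR-24-3p at -0.13. No member separated the groups in CPM, beside 8.33% of tested miRNAs. After TMM scaling miR-23a-3p and miR-27a-3p were lower in all 3 MC libraries, 2 of 5 members beside 8.59% of tested miRNAs. For miR-23a-3p the scaled values were 3640, 3619 and 3590 CPM in MS and 2356, 3235 and 3476 CPM in MC, and for miR-27a-3p they were 4165, 3088 and 3494 CPM in MS and 1220, 3018 and 2982 CPM in MC. The nearest libraries of the 2 groups differed little for both.

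The interaction, (MC - MS) - (CS - SS), asks whether the cocaine difference itself differed with methionine. edgeR called 0 of 780 miRNAs (percent called 0), with 34 at an unadjusted p under 0.05, and DESeq2 called 0. miR-24-3p was at 2.06 (SE 0.92, interval 0.05 to 4.06), with an unadjusted p of 0.0452 and an adjusted p of 0.804 in edgeR. It was 1.09 without MC replicate 17 and 1.10 with library set as a covariate. The other members lay between -0.20 and 0.09, with standard errors of 0.25 to 0.46.

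**Figure D2:**
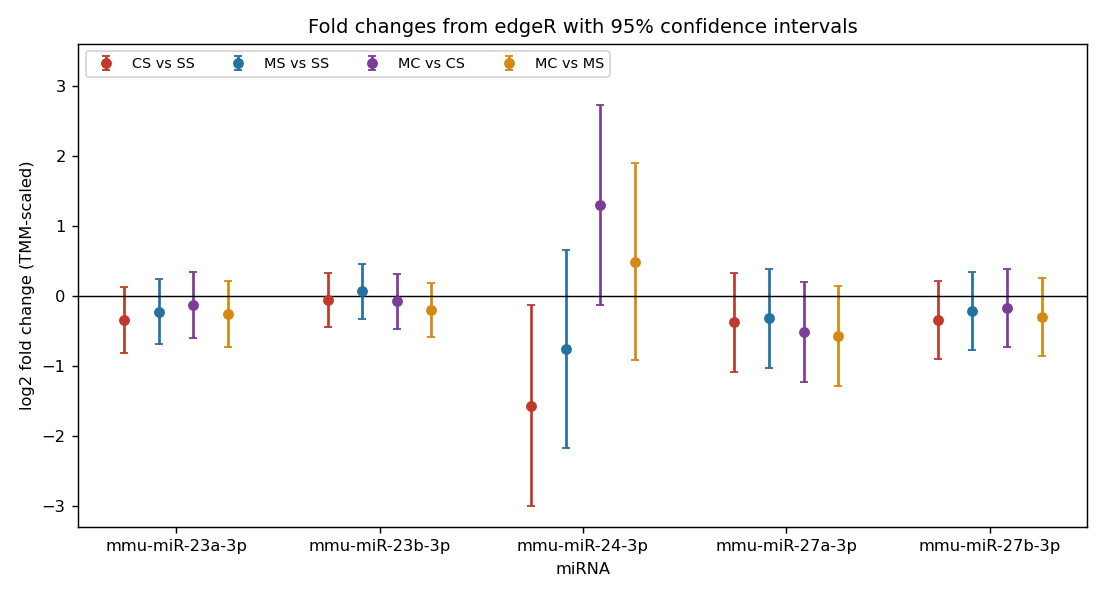
log2 fold changes of the 5 miRNAs in 4 comparisons of treatment groups (points), from edgeR with TMM factors, with 95% confidence intervals (bars). The intervals of miR-24-3p are the widest, and its interval in CS against SS, -3.00 to -0.13, is the single one of the 20 drawn that leaves out 0; its adjusted p was 0.994.

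The paralogs of the 2 chromosomes were next set against each other inside each library, where scaling cancels. miR-23a-3p made up 63.6%, 66.0% and 66.8% of the reads of miR-23a-3p and miR-23b-3p in SS and 62.1%, 62.2% and 58.0% in CS. The share was 60.8%, 58.7% and 63.6% in MS, and 55.4%, 61.4% and 62.2% in MC. Wilson intervals were at most 0.653 percentage points to either side. Group means were 65.5% ± 1.70 for SS, 60.8% ± 2.43 for CS, 61.0% ± 2.49 for MS and 59.7% ± 3.69 for MC (SD, n = 3 each). SS was nominally the highest: its 3 libraries were above all of CS and MC, and overlapped MS. The test over all groups did not reach 0.05 (F = 2.75, exact permutation test, p = 0.111, and 0.332 after Benjamini-Hochberg adjustment over the 3 such tests). Within library sets the exact permutation p was 0.170, where 540 groupings were possible.

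miR-27a-3p made up 60.9%, 54.2% and 49.7% of the reads of miR-27a-3p and miR-27b-3p in SS, 50.0%, 57.9% and 54.6% in CS, 54.5%, 48.8% and 56.6% in MS, with 43.2%, 49.3% and 50.4% in MC. Intervals were at most 0.798 percentage points to either side. Group means were 54.9% ± 5.65, 54.2% ± 3.96, 53.3% ± 4.05 and 47.7% ± 3.87 in that order (SD, n = 3 each). MC was nominally the lowest, with an exact permutation p of 0.270 (F = 1.66, adjusted p = 0.405), and 0.252 within library sets. Without MC replicate 16, the lowest library, the exact permutation p was 0.605. MC replicate 16 was the lowest in both shares, while SS replicate 14 had the highest miR-23a share and a miR-27a share under 50%.

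**Figure D3:**
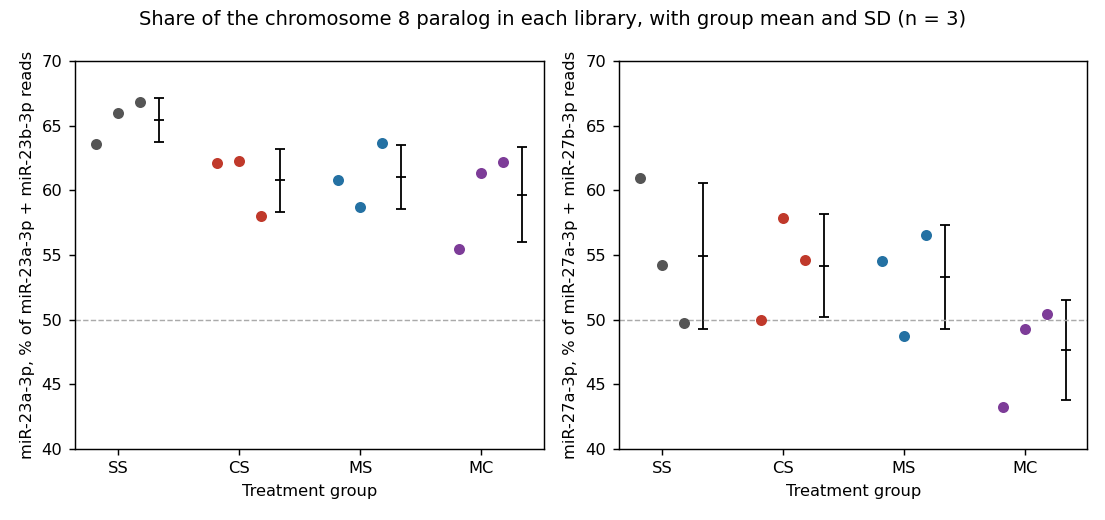
Share of the chromosome 8 paralog in each library, as percent of the reads of both paralogs (vertical axes from 40% to 70%), for miR-23 on the left and miR-27 on the right. Points are libraries, black bars are group means with SD (n = 3) and the dashed line is 50%. miR-23a-3p was above 50% in all 12 libraries, from 55.4% to 66.8%, while miR-27a-3p ranged from 43.2% to 60.9%.

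Across libraries the members of a cluster did not simply move together. Correlations were taken on log2(CPM + 1) and are descriptions, since the points share the library total and MC replicate 16 was the lowest in 4 of the 5 members. Over 12 libraries miR-27b-3p followed miR-23a-3p of the other chromosome (r = 0.961), miR-27a-3p (0.914) and its cluster partner miR-23b-3p (0.883). Without MC replicate 16 these were 0.871, 0.286 and 0.788. miR-27a-3p then correlated with its cluster partner miR-23a-3p at 0.183, after 0.841 with that library. With miR-23b-3p it was at -0.04 over the 11 libraries, after 0.70 over 12. miR-24-3p was related to the other 4 at 0.118 to 0.359 over 12 libraries and at -0.327 to 0.428 over 11.

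**Figure D4:**
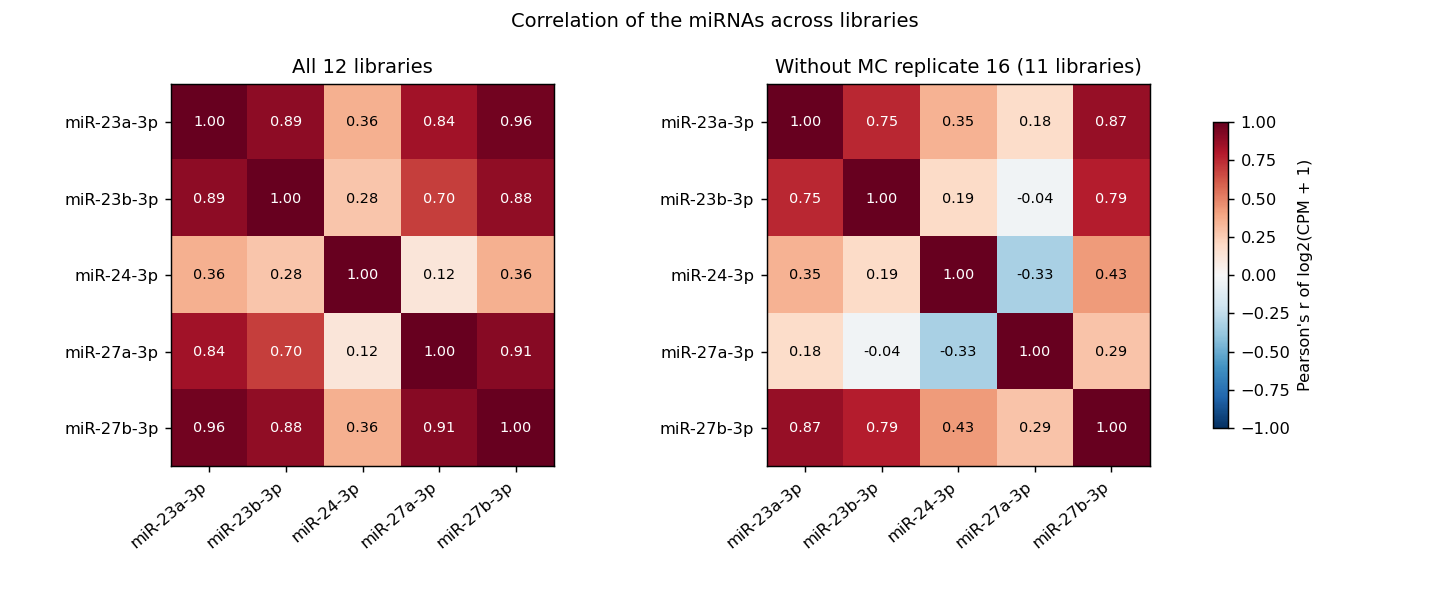
Pearson's r between the 5 miRNAs on log2(CPM + 1), over 12 libraries (left) and over the 11 without MC replicate 16 (right), with red for positive and blue for negative values. Leaving out that library lowered miR-27a-3p with miR-23a-3p from 0.84 to 0.18, whereas miR-23a-3p with miR-27b-3p went from 0.96 to 0.87.

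The miRNAs most like each member were found by the highest r over the 12 libraries. For miR-27b-3p they were miR-350-3p (0.988), miR-99a-5p (0.985) and miR-181a-1-3p (0.980), for miR-23a-3p miR-181a-1-3p (0.956), miR-148b-3p (0.955) and miR-344c-3p (0.954), and for miR-23b-3p miR-323-3p (0.960), miR-344d-3p (0.957) and miR-181c-5p (0.940). For miR-27a-3p they were miR-499-5p (0.969), miR-143-3p (0.943), a marker of vessel wall muscle, and miR-369-5p (0.942). Like these members, all of these miRNAs were lowest in MC replicate 16. Among them, the correlation without that library was computed for miR-143-3p alone. Without MC replicate 16 the correlation with miR-143-3p was 0.439 for miR-23a-3p, 0.796 for miR-23b-3p, 0.104 for miR-24-3p, 0.144 for miR-27a-3p and 0.705 for miR-27b-3p. With the endothelial marker miR-126a-3p it was 0.437, 0.771, -0.119, 0.219 and 0.548 in the same order. The neuron markers differed from each other: with miR-124-3p it was -0.651, -0.796, -0.327, 0.319 and -0.656, and with miR-9-5p 0.381, 0.094, 0.177, -0.077 and 0.376. With the neuron marker miR-128-3p it was 0.422 for miR-27a-3p and 0.476 for miR-27b-3p, and was not computed for the other members. Correlations without that library were not computed for the neuron marker miR-132-3p or the vessel markers miR-126a-5p, miR-145a-5p and miR-145a-3p. miR-23b-3p and miR-27b-3p thus had the highest values with miR-143-3p and miR-126a-3p. The part of vessel cells or neurons in the members' levels was not tested.

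miR-24-3p was most like miR-541-3p (r = 0.977, and 0.979 without MC replicate 16), followed at a distance by miR-1291 (0.821) and miR-181b-1-3p (0.801), both below 2 CPM in all libraries. miR-541-3p was at 1.22, 10.2 and 20.8 CPM in SS, 2.24, 2.07 and 3.67 CPM in CS, 3.28, 7.39 and 4.43 CPM in MS, with 1.67, 18.2 and 2.02 CPM in MC. It thus stood high in the same libraries as miR-24-3p, SS replicates 13 and 14, MS replicate 4 and MC replicate 17, at far lower levels.

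The deposited files also count reads on precursor families of miRNAs, in rows apart from the mature forms. The mir-24 row was at 1341, 4341 and 6806 CPM in SS, 1338, 1457 and 1902 CPM in CS, 1694, 3380 and 2496 CPM in MS, with 1352, 4872 and 967.0 CPM in MC. It followed the mature miR-24-3p (r = 0.935, and 0.932 without MC replicate 16), so the high libraries of miR-24-3p were high in both rows. As a share of both rows it was 28.7% ± 4.55 (SD, n = 12), and its lowest shares were 20.3% in MC replicate 17 and 20.8% in MC replicate 20. The mir-23 row held 25.4% ± 2.40 of the reads of the family and the mir-27 row 17.9% ± 2.66. The mir-27 row followed miR-27a-3p (r = 0.939, and 0.855 without MC replicate 16) more closely than miR-27b-3p (0.798 and 0.088). Which reads the authors' counting placed in the family rows was not given in the sources used here.

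On the strand opposite the mir-24 hairpins, miR-3074-5p split the libraries sharply. It was at 413.9, 1810 and 2703 CPM in SS and at 367.6, 392.7 and 680.0 CPM in CS. In MS it was at 0.547, 1339 and 0.674 CPM, and in MC at 424.0, 1.88 and 391.8 CPM. In 9 libraries it had 10.6 to 21.4 reads per 100 reads of miR-24-3p, with a median of 13.8. In MS replicates 3 and 23 and MC replicate 17 it had 0.00982 to 0.0136 per 100, which is 6, 7 and 15 counts. All 3 of these libraries had received methionine, as had 3 libraries that were not low, and they belong to the second set and to the set of CS replicate 10. The part of the library set in this split was not tested. miR-3074-5p is nearly the reverse complement of miR-24-3p, and whether the counting kept the strands apart in the same way in all libraries cannot be checked from the counts, so the near-0 values, and the value of miR-24-3p in MC replicate 17, hold only as far as it did. MC replicate 17 had the most miR-24-3p of all libraries and nearly no miR-3074-5p. Over the 12 libraries the correlation of miR-24-3p and miR-3074-5p was -0.05. edgeR called miR-3074-5p in no comparison, with standard errors of 2.02 to 2.87 on the log2 scale.

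**Figure D5:**
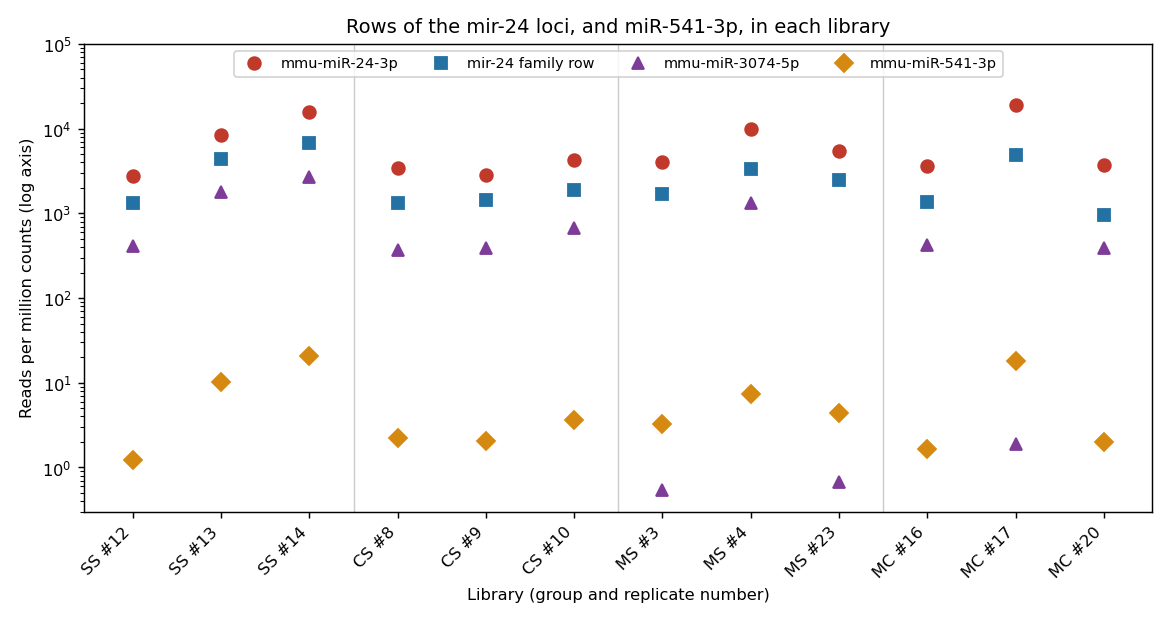
CPM (log axis) of miR-24-3p, of the precursor family row mir-24, of miR-3074-5p from the opposite strand, and of miR-541-3p, in each of the 12 libraries, named by group and replicate number. The first 2 and miR-541-3p are high in the same libraries, whereas miR-3074-5p is between 0.547 and 1.88 CPM in MS replicates 3 and 23 and MC replicate 17.

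The other miR-3074 forms were not near 0 in these libraries. miR-3074-2-3p, of the chromosome 8 locus, was at 24.3, 33.0 and 38.3 CPM in SS, 47.7, 41.8 and 45.2 CPM in CS, 45.4, 97.0 and 68.9 CPM in MS, with 15.8, 82.4 and 53.8 CPM in MC, and miR-3074-1-3p, of chromosome 13, was at 2.79 to 7.69 CPM. For miR-3074-2-3p all 3 libraries of MS were above those of SS in CPM, as 22.8% of tested miRNAs did not overlap. In CPM so were all 3 of CS, where 13.2% did not overlap. Scaling by the TMM factors, 1.26 in CS replicate 8 and 0.826 in SS replicate 13, makes CS and SS overlap and leaves MS above SS. The comparison of MS with SS gave a log2 fold change of 0.88 (SE 0.38) and an edgeR adjusted p of 0.502, beside 0.24 (SE 0.38) in CS against SS. The level of miR-3074-2-3p went with that of miR-24-1-5p (r = 0.952, and 0.918 without MC replicate 16), the other strand of the chromosome 13 hairpin.

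The other strands of the hairpins, which are mostly discarded when the miRNA is loaded, were rare. They are shown with their seeds in capitals because the 2 of mir-24, unlike miR-24-3p, differ in sequence between the chromosomes.
mmu-miR-24-1-5p: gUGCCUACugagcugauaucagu
mmu-miR-24-2-5p: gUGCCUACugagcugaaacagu

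miR-24-1-5p, from chromosome 13, was at 0.901 to 7.69 CPM, and miR-24-2-5p, from chromosome 8, was at 0.257 to 2.01 CPM, the lowest count being 2. Both were lowest in MC replicate 16. The 2 together were 0.0239% to 0.189% of the reads of the mir-24 arms. miR-27b-5p had the highest median of these strands, 12.6 CPM, at 1.26 CPM in SS replicate 14 and 7.90 to 19.1 CPM in the other libraries. miR-27a-5p was at 1.76 to 10.1 CPM, miR-23b-5p at 2.38 to 9.91 CPM, and miR-23a-5p had 0 to 6 counts and did not pass the filter (3 counts, the limit that a count of 0 allows, are 0.271 to 0.386 CPM). miR-23b-5p was highest in MC replicate 16 (9.91 CPM), where miR-23b-3p was lowest. Of the 5 other strands tested, none was called in any comparison by edgeR, and neither was any of the 3 miR-3074 forms.

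miR-128-3p, whose 5′ end overlaps that of miR-27, was between 15953 and 28455 CPM, with 2.51 to 8.38 reads for each read of miR-27a-3p and miR-27b-3p, the highest ratio being in MC replicate 16. It correlated with miR-27a-3p at 0.636 and with miR-27b-3p at 0.675 over 12 libraries, and at 0.422 and 0.476 without MC replicate 16. In CS against SS it was at -0.30 (SE 0.21), beside -0.38 for miR-27a-3p and -0.34 for miR-27b-3p. The smallest adjusted p of any miRNA was 0.105 in edgeR, for the predicted novel_mir54 in MS against SS (-1.99, SE 0.35). novel_mir54 also had the smallest p in CS against SS (-1.09) and in the interaction (1.95), mmu-miR-7052-3p had it in MC against CS (2.08) and mmu-miR-122-3p in MC against MS (-4.05), none of them called by edgeR. DESeq2 called novel_mir54 in MS against SS (adjusted p = 0.00398). The value of mmu-miR-122-3p was -1.47 without MS replicate 3, where the liver marker mmu-miR-122-5p was at 2494 CPM, against 173.0 and 69.4 CPM in the other MS libraries, and the part of that library's RNA source in it was not tested.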

How the data were processed

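Small RNA of the PFC was measured in 12 libraries, 3 for each of SS, CS, MS and MC, grouped by the treatment label. Per the study's methods, the authors filtered the reads on quality, adapters and length and mapped those left with AASRA. The submitters' processing notes name Bowtie and mm10, without versions. Each deposited count is a whole number of reads that was not normalized. The deposited TPM (tags per 1000000) was computed by the authors as count over library total, and it matched the counts within 0.006 in all 12 libraries. CPM was computed from the counts on the same total. No aligner setting for miRNAs was given in the sources used here.

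Mature and predicted miRNAs that reached 5 counts in 3 or more libraries were tested by the quasi-likelihood F-test of edgeR 4.0.16 (R 4.3.3), with TMM over miRNAs, the file total as library size, a coefficient for each group and Benjamini-Hochberg adjustment over 780 miRNAs, and an adjusted p of 0.05 or below was a call. Standard errors and 95% intervals were derived from the same fit. Shares and sums were compared with two-sided exact permutation tests of F. Library sets came from average linkage of log2 profiles with a pseudocount of 0.5, centred by family over the libraries and cut into 3 sets. No 2 libraries were near-identical: the smallest chi-square per degree of freedom over 66 pairs was 143.9 for 568 miRNAs. matplotlib 3.10.9, scipy 1.17.1, numpy 2.4.6 and pandas 2.3.3 under Python 3.11.15 served the other steps, and the scripts were tested on simulated data.

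Alternatives were DESeq2 1.42.0, TMM from all features, total counts, at least 10 counts in 3 libraries, no filter, mature miRNAs alone, a limit of 1 on the log2 fold change, the 6 libraries of a comparison, library set as a covariate, other scales or denominators for shares and sums, and each library left out. Permutation within library sets was chosen after seeing the data. Members, lists and tests were chosen with earlier results of these data known. Named miRNAs are the members, other strands and miR-3074 forms of their hairpins, miR-128-3p, for each member the 3 mature miRNAs of highest correlation, the smallest p of each comparison, and cell markers. The miRNAs with the seed of miR-24-3p are named but were not analysed.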

Additional observations from a re-analysis of the deposited data

How the results depend on the processing

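No member was called under any alternative (smallest adjusted p 0.324). Of 220 values of the members under the alternatives 209 kept their direction, and all 11 that reversed had a log2 fold change within 0.49 of 0 in the reported fit. The 220 include 25 values under the limit of 1 on the log2 fold change, which are those of the reported fit and could not reverse. With total counts miR-23b-3p in CS against SS was 0.22, miR-23a-3p and miR-27b-3p in MS against SS were 0.022 and 0.034, and both in the interaction were -0.22 and -0.23. With TMM from all features the same pair was -0.038 and -0.062 in the interaction, and with at least 10 counts miR-27b-3p was -0.011 there. With library set as a covariate miR-23b-3p in CS against SS was 0.062, and in MC against MS miR-23a-3p was 0.054 and miR-24-3p was -0.13. The cause was not tested. With single libraries left out, 18 of 300 values reversed. The ranges were -0.25 to 0.029 (miR-23a-3p) and -0.34 to 0.081 (miR-27b-3p) in MC against CS, both highest without MC replicate 16, -0.088 to 0.030 (miR-23b-3p, CS against SS), -0.0083 to 0.24 (miR-23b-3p, MS against SS), -0.48 to 0.88 (miR-24-3p, MC against MS), and in the interaction -0.090 to 0.27 (miR-23a-3p), -0.39 to 0.15 (miR-27a-3p) and -0.14 to 0.32 (miR-27b-3p). miRNAs called in MS against SS numbered 13 with DESeq2 and 4 with the 6 libraries alone, and 0 to 5 with a library left out (5 without MC replicate 16). In MC against CS they numbered 0 to 2 (2 without MC replicate 16). Called in MS against SS with DESeq2 was novel_mir54 (adjusted p = 0.00398). The exact permutation p ranged from 0.0890 to 0.316 for the miR-23a share, from 0.139 to 0.605 for the miR-27a share and from 0.311 to 0.935 for the sum. No paired analysis was possible because the groups share no replicate numbers. With 3 libraries a group, the standard error of miR-24-3p, 0.64 to 0.66 between groups, limits what could be detected. The p-values measure the spread between pooled libraries.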
